A study of Homo sapiens with 9 samples.

Results

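Of 16701 genomic regions that carried a p300 peak in irradiated PC3 cells, 556 (3.33%) were found in exactly 2 libraries, 1 treated with MnTE-2-PyP and 1 untreated. These are called mixed regions here. Peaks of the 5 lists were merged wherever they shared at least 1 bp, and the members were chosen by the lists in which a peak was called and by where that peak lay. For that reason the number of mixed regions and its split by list pair are a description and were not tested.

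p300 is a histone acetyltransferase and transcriptional coactivator. It is brought to enhancers and promoters by DNA-bound transcription factors and acetylates histones there, including H3 at lysine 27, a mark of active regulatory elements. A mixed region is a site at which a p300 peak was called with and without the drug, but in a single library of each group.

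The treated group was PC3, a line from a metastatic human prostate carcinoma, given 30 µM MnTE-2-PyP for 24 h, with 3 p300 libraries. MnTE-2-PyP is a manganese porphyrin that mimics superoxide dismutase. The untreated group was the same line without the drug, with 2 p300 libraries. Both groups received 20 Gy of radiation and were fixed 1 h later, so radiation is common to all libraries and its effect cannot be read from them. The libraries are described as biological replicates of 1 cell line, and 4 input libraries were not analysed here. The series asked where p300 sat with and without the drug.

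The lists held 4922, 10059 and 528 peaks in treated libraries 1, 2 and 3, against 2313 and 2039 in untreated libraries 1 and 2. No read counts come with the lists, so the depth of each library is unknown. The scale of the authors' peak score is not named, so each score was turned into its percentile within its own list, where 100 is the strongest peak. Peak names carry a run identifier that treated list 1 shares with untreated list 1 and treated list 3 with untreated list 2. Treated list 2 has its own identifier, and the labels do not say what the identifiers stand for.

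Almost all mixed regions came from 4 of the 6 possible pairs of lists. Treated list 2 with untreated list 1 held 166 of them, treated list 1 with untreated list 1 held 163, treated list 2 with untreated list 2 held 142 and treated list 1 with untreated list 2 held 74. Treated list 3, the shortest list, entered only 11, with 7 in the pair with untreated list 1 and 4 in the pair with untreated list 2. Untreated list 1 was thus part of 336 of the 556 regions and untreated list 2 of 220.

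Longer lists have more chances to meet, so each count was also divided by the number of possible pairs of peaks between its lists. Treated list 1 with untreated list 1 then gave 14.3 mixed regions per 1000000 peak pairs. The other mixed pairs gave 7.37 (treated 1 with untreated 2), 7.13 (treated 2 with untreated 1), 6.92 (treated 2 with untreated 2), 5.73 (treated 3 with untreated 1) and 3.72 (treated 3 with untreated 2). The highest and the lowest of these values both belong to pairs that share a run identifier. A region that a further list also holds counts in no pair, so a low value need not mean that the lists share little. Regions held by exactly 2 lists of the same group gave 6.57 to 9.62 on this scale. The untreated pair shared 31 such regions, or 6.57 per 1000000 peak pairs, and treated lists 1 and 2 shared 375, or 7.57. Treated list 3 gave 9.62 with treated list 1 and 9.23 with treated list 2. The pairs of treated lists thus lay above every mixed pair except treated list 1 with untreated list 1.

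**Figure D1:**
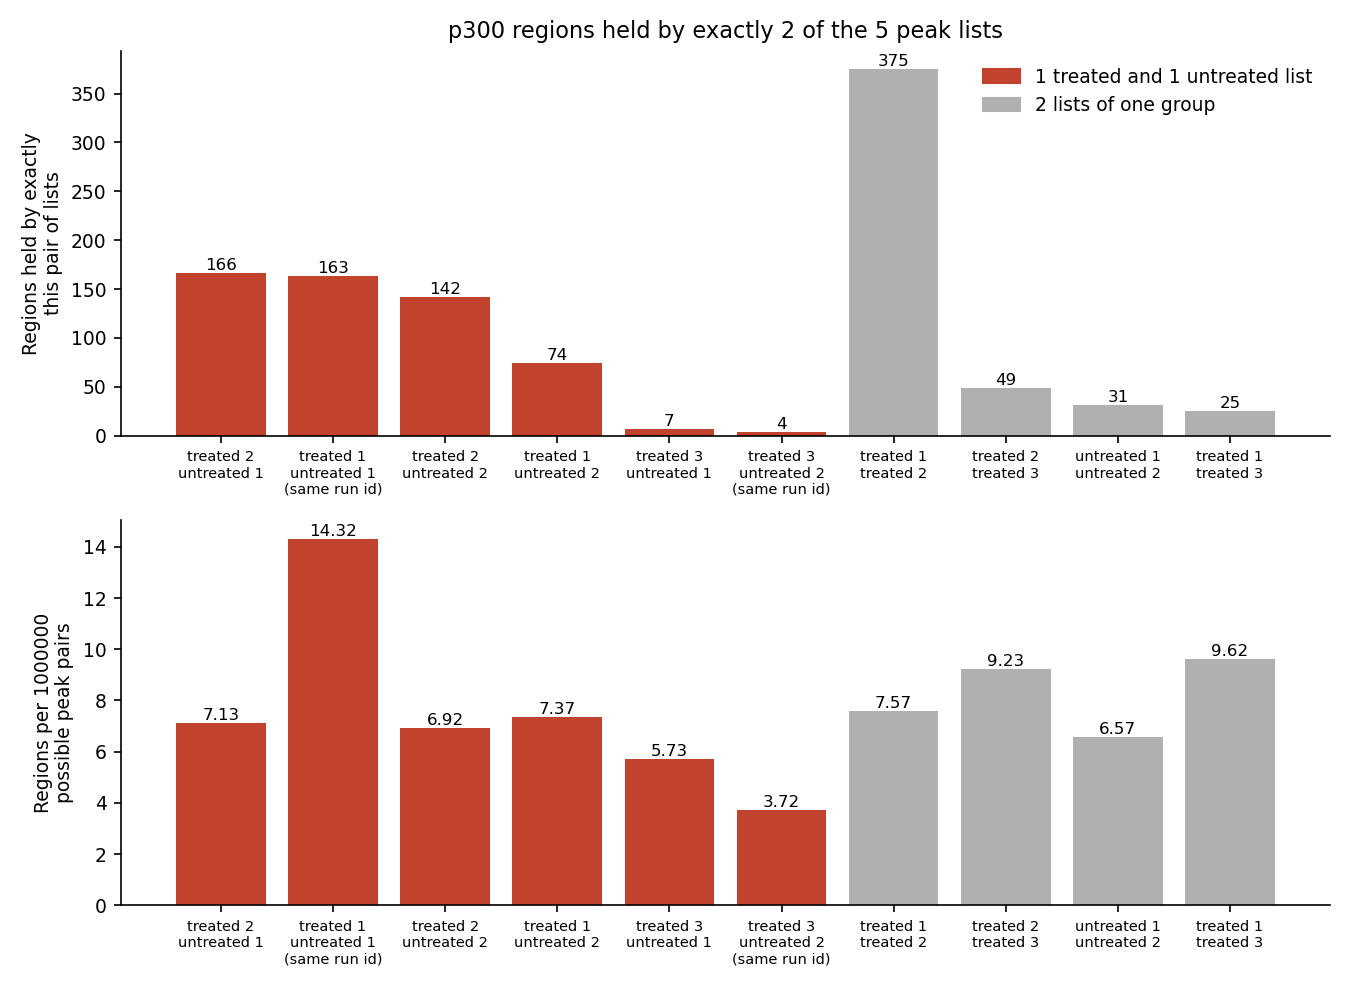
Regions held by exactly 2 of the 5 lists (upper bars, number of regions) and the same per 1000000 possible peak pairs (lower bars), for pairs of 1 treated and 1 untreated list in red and pairs of 1 group in grey. Treated list 1 with untreated list 1 stands at 14.3, and every other pair lies between 3.72 and 9.62.

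When each list was limited to its 528 strongest peaks, 120 mixed regions were found. Treated list 1 with untreated list 1 then held 37, treated list 2 with untreated list 1 held 33, treated list 1 with untreated list 2 held 17, treated list 2 with untreated list 2 held 13, treated list 3 with untreated list 2 held 12 and treated list 3 with untreated list 1 held 8. At that length the pairs with untreated list 1 and treated list 1 or 2 again held more than the others. Without untreated list 1 the number of mixed regions was 255, against 556 with it.

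Mixed regions made up 4.88%, 3.08% and 2.08% of the peaks in treated lists 1, 2 and 3, against 14.6% and 10.8% in untreated lists 1 and 2. The treated share averaged 3.35% ± 1.42 (SD, n = 3) and the untreated share 12.7% ± 2.64 (SD, n = 2), and the groups did not overlap. The difference was -9.36 points. It is given as a description with no p-value, because the rule that chose the members fixes which peaks are counted. Each mixed region adds at least 1 peak to a treated list and 1 to an untreated list. Both groups therefore hold nearly the same number of mixed peaks, in lists that differ in number and length. The difference depends on that number and length and cannot be read as a trait of either group. It was -1.39 points without treated list 2. With 528 peaks in every list it was -3.79 points, a value set by the number of mixed regions and by 3 treated against 2 untreated lists.

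Mixed regions lay between the other sets in width, where a merged region spans all of its peaks. Their median width was 439.5 bp, with quartiles of 338 and 568 bp and a range of 204 to 1567 bp, against a median of 294 bp for regions in 1 list alone and 507 bp for regions in 3 to 5 lists. Of the 556, 549 consisted of 1 treated and 1 untreated peak, and 7 held a further peak, from the same treated list in 5 and from the same untreated list in 2. A width of 700 bp or more was reached by 62 mixed regions, but only 30 contained a single peak that wide. The widest, at chr10:80624700-80626266 (1567 bp, hg19), joined a treated peak of 1366 bp and an untreated peak of 396 bp that shared 195 bp.

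Mixed peaks had median widths of 250, 360 and 229 bp in treated lists 1, 2 and 3, against 240 and 397 bp in untreated lists 1 and 2. These followed the medians of whole lists, at 234, 323 and 243 bp in the treated and 235 and 376 bp in the untreated lists. The groups overlapped, and the difference of -38.8 bp was smaller than the spread between lists (SD 77.5 bp, n = 5). It is given as a description with no p-value, because the members were chosen by the overlap of peak positions. It became 53.8 bp without untreated list 2. It was -5.50 bp without treated list 1 and -11.5 bp without treated list 3, and -96.0 bp without treated list 2 and -106 bp without untreated list 1. It was 10.0 bp between the lists numbered 1, which share a run identifier, and -168 bp between treated list 3 and untreated list 2, which share the other.

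In each of the 5 lists the peaks of mixed regions were wider than the peaks of regions in that list alone. The ratios of medians were 1.12, 1.15 and 1.02 in treated lists 1, 2 and 3 and 1.09 and 1.12 in untreated lists 1 and 2, a mean log2 ratio of 0.14 ± 0.064 (SD, n = 5). The ratio is given as a description with no p-value, because the members were chosen by the overlap of peak positions. With 528 top-scoring peaks per list the direction was the opposite in 5 of 5 lists, at a mean log2 ratio of -0.067.

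The 2 peaks of a mixed region mostly lay on top of each other. They shared a median of 216 bp, or 94.7% of the shorter peak. In 215 of the 556 regions the shorter peak lay wholly inside the longer one, and in 80 (14.4%) they shared less than 50% of the shorter peak. The distance between the peak centres had a median of 71.3 bp.

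How closely the peaks coincided varied by pair. The centres were 35.0 bp apart (median) for treated list 1 with untreated list 1 and 63.3 bp apart for treated list 2 with untreated list 1, against 127.5 bp in both pairs of untreated list 2 with treated lists 1 and 2. In the pair of treated list 2 and untreated list 2 the shared part was 79.6% of the shorter peak and 30 of 142 regions shared less than 50% of it. The corresponding shares of the shorter peak were 98.2% for treated list 1 with untreated list 1, 95.8% for treated list 2 with untreated list 1 and 92.2% for treated list 1 with untreated list 2. In bp, treated list 2 with untreated list 2, the lists with the widest peaks, shared the most of these 4 pairs, at a median of 277.5 bp. The others shared 206 bp (treated 1 with untreated 1), 207.5 bp (treated 2 with untreated 1) and 202 bp (treated 1 with untreated 2). The differences between pairs were not tested.

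**Figure D2:**
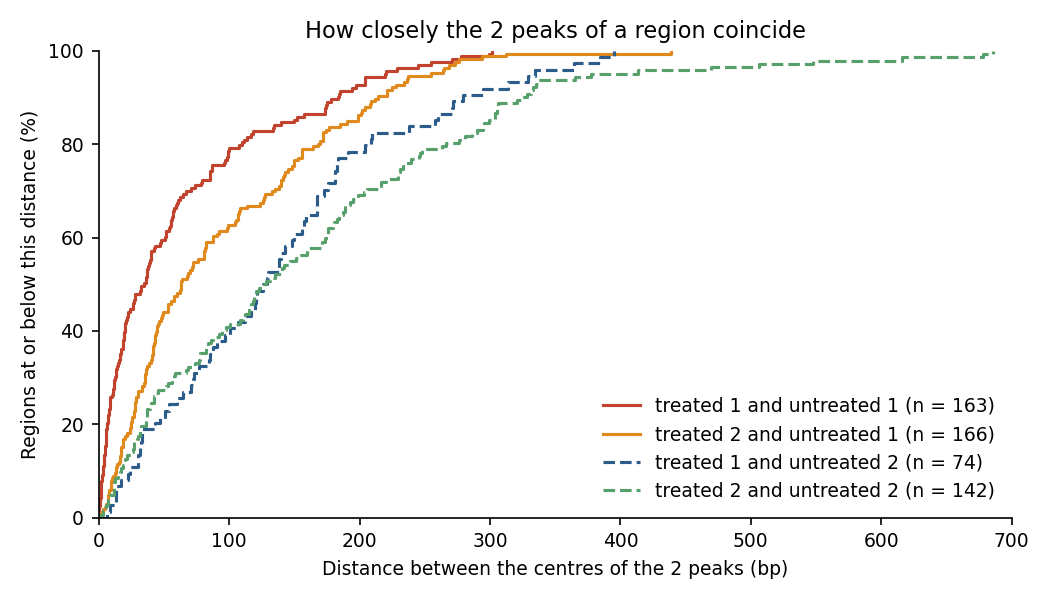
Cumulative share of mixed regions (percent) by the distance between the centres of their treated and untreated peak (bp), for the 4 pairs with 74 or more regions. The curves of the pairs with untreated list 1, with medians of 35.0 and 63.3 bp, rise before those of the pairs with untreated list 2, with a median of 127.5 bp each.

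At the edge of the rule, the mixed regions with the smallest overlap were at chr20:31495315-31495934, with 9 bp shared by treated list 2 (score 5.10) and untreated list 2 (score 4.11), and at chr10:79580118-79581361, with 12 bp shared by the same lists (scores 3.52 and 3.44). Just outside it, a peak of treated list 1 at chr15:21994818-21995308 (score 6.91) ended 2 bp before a peak of untreated list 2 at 21995311 to 21995642 (score 4.13). On chromosome 10 a peak of treated list 2 at 56022408 to 56022702 (score 2.84) began 8 bp after a peak of untreated list 2 at 56022049 to 56022399 (score 6.49). In all, 34 such pairs of single-list peaks from different groups missed each other by less than 100 bp.

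Distances to peaks of further lists were measured for mixed regions only. They cannot show whether mixed regions differ from other regions in this. A peak from a further list lay within 500 bp of 74 mixed regions (13.3%), within 5 kb of 212 (38.1%) and within 50 kb of 368 (66.2%). For the 74 the closest further peak was from treated list 2 in 30, treated list 1 in 25, treated list 3 in 1, untreated list 2 in 11 and untreated list 1 in 7. The median distance to a further list was 42838.5 bp for treated list 2 with untreated list 1, against 6777 bp for treated list 1 with untreated list 1, 15430 bp for treated list 2 with untreated list 2 and 4928 bp for treated list 1 with untreated list 2. The longest list, treated list 2, is among the further lists only where the region is not held by it. Regions in all 5 lists lay within 50 kb of 55 mixed regions (9.89%), of which 30 belonged to treated list 1 with untreated list 1.

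Peaks of mixed regions were spread over the score range and were not gathered at its middle. Their median percentile was 57.7, 59.3 and 70.6 in treated lists 1, 2 and 3, against 47.1 and 46.1 in untreated lists 1 and 2. The groups did not overlap, at a mean of 62.5 ± 7.07 (SD, n = 3) for treated and 46.6 ± 0.676 (SD, n = 2) for untreated lists, a difference of 15.9 points (exact two-sided permutation p = 0.2, the smallest possible). The value for treated list 3 rests on 11 peaks. The difference was 10.6 points within the lists numbered 1 and 24.5 points between treated list 3 and untreated list 2. Leaving out treated list 2 gave 9.31 points, leaving out treated list 1 gave 5.38 and leaving out untreated list 1 gave 1.46, and with 528 peaks per list it was 2.22 points. A mixed region counts in a treated and an untreated list, so the list values are not fully independent. Only called peaks have a score, so the test is also not free of the rule that chose the members. A percentile depends on how many weak peaks a list holds, and the lists differ in length.

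The percentile of mixed peaks lay above that of peaks in 1 list alone in 5 of 5 lists. Peaks in 1 list alone had medians of 43.7, 47.0 and 29.2 in treated lists 1, 2 and 3 and 41.4 and 42.6 in untreated lists 1 and 2. For peaks in 2 lists of the same group the medians were 56.0, 62.5 and 38.6 in the treated and 47.2 and 51.1 in the untreated lists. These too lay above those of 1 list alone in each list, so this trait is not particular to mixed regions. A mixed region counts in both of its lists, so the 5 differences share regions and are not fully independent. Only called peaks have a score, and the rule uses whether a peak was called. The test of this difference is therefore not free of the rule that chose the members. The mean difference was 15.4 ± 15.2 points (SD, n = 5, exact two-sided sign-flip permutation p = 0.063, the smallest possible). It was 13.9, 12.3 and 41.5 points in the treated lists and 5.71 and 3.51 points in the untreated lists, so that treated list 3 made up much of the mean. It became 11.4 points when treated list 3 was left out, 9.61 when untreated list 1 was, 29.8 when treated list 2 was and 24.9 when untreated list 2 was. Each time the mixed regions were redrawn from the remaining lists. Without treated list 2, treated list 1 with untreated list 1 held 319 mixed regions in place of 163. These values therefore do not give the weight of a list in the mean.

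Regions shared by 3 to 5 lists held peaks of higher percentile in 4 of 5 lists. The medians of these peaks were 89.3, 94.9 and 57.6 in treated lists 1, 2 and 3 and 77.9 and 81.0 in untreated lists 1 and 2. The difference, mixed peaks minus these, was -31.7, -35.6 and 13.1 points in treated lists 1, 2 and 3 and -30.8 and -34.8 points in untreated lists 1 and 2, so treated list 3 was the exception. The mean difference was -24.0 ± 20.8 points (SD, n = 5, exact two-sided sign-flip permutation p = 0.125). These 5 differences also share regions and are not fully independent. Nor is this test free of the rule, since the number of lists with a called peak sets the class. Leaving out treated list 3 gave -31.0 points, leaving out treated list 2 gave -8.35 and leaving out untreated list 2 gave -15.7. These values too rest on redrawn sets of mixed regions.

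**Figure D3:**
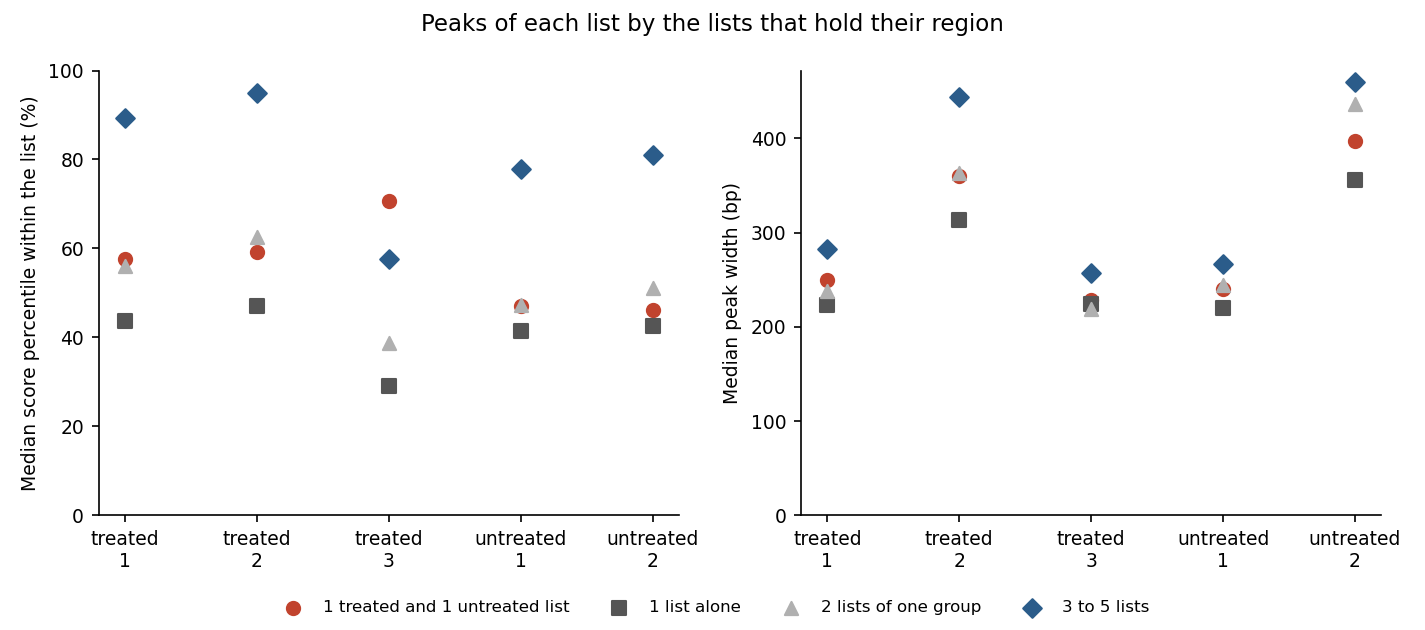
Median score percentile (left, percent) and median peak width (right, bp) of the peaks of each list, by the number of lists that hold their region. By percentile, the mixed regions (red circles) sit well below the regions of 3 to 5 lists in 4 of the 5 lists. There they lie closer to the regions of 1 list alone or of 2 lists of 1 group. In treated list 3 they sit above all of these by percentile. By width they lie between the regions of 1 list alone and those of 3 to 5 lists in each of the 5 lists.

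Mixed peaks were found in every part of the score range. Each list was divided by score into 5 bins of about 20% of its peaks. From the weakest to the strongest bin, mixed peaks made up 5.18%, 4.11%, 3.57%, 4.31% and 7.21% of the peaks in treated list 1 and 2.93%, 2.72%, 2.23%, 2.90% and 4.63% in treated list 2. In untreated list 1 the shares were 14.2%, 17.8%, 13.8%, 11.5% and 15.3%, and in untreated list 2 they were 12.4%, 11.2%, 11.5%, 10.3% and 8.82%. In treated list 3 the 5 bins held 1, 2, 1, 4 and 3 mixed peaks. The strongest bin was thus the richest in mixed peaks in treated lists 1 and 2 and the poorest in untreated list 2. Regions in 3 to 5 lists, by comparison, supplied 45.9% and 25% of the strongest bin in treated lists 1 and 2 and 63.6% and 53.4% in untreated lists 1 and 2.

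The agreement between the treated and the untreated percentile of a region varied by pair. Across the 166 regions of treated list 2 with untreated list 1, Spearman's rho between the percentiles was 0.62, and across the 163 of treated list 1 with untreated list 1 it was 0.46. It was 0.20 across the 74 of treated list 1 with untreated list 2 and 0.066 across the 142 of treated list 2 with untreated list 2. These correlations are across regions of 1 pair of libraries, which are not independent replicates, and they were not tested. The treated percentile was the higher one in 323 of 556 regions (58.1%), with 107 of 163, 99 of 166, 82 of 142 and 30 of 74 in treated 1 with untreated 1, treated 2 with untreated 1, treated 2 with untreated 2 and treated 1 with untreated 2. Both peaks lay below the 50th percentile in 154 regions (27.7%).

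**Figure D4:**
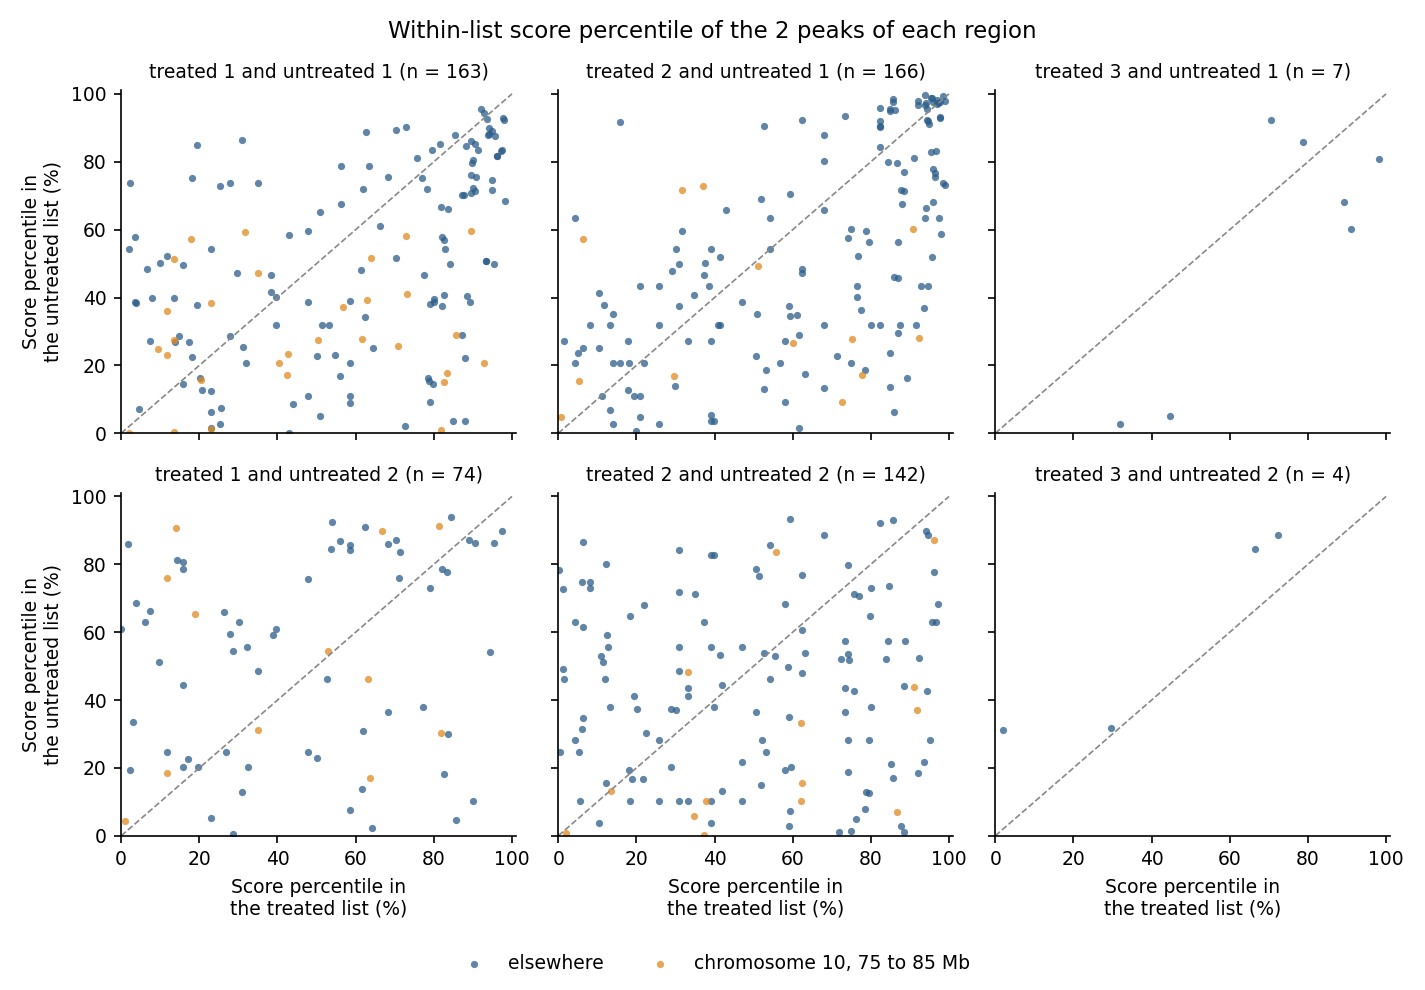
Score percentile of each mixed region in its treated list (x, percent) and its untreated list (y, percent), 1 panel per pair, with regions on chromosome 10 from 75 to 85 Mb in orange and equal percentiles on the dashed line. In the upper row (untreated list 1), the panels of treated lists 1 and 2 hold 5 and 20 regions at or above 90 in both lists. The panel of treated list 3 and the panels of untreated list 2 hold no such region.

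Among the mixed regions were 25 whose peaks lay at or above the 90th percentile of both lists, a limit chosen after the values were seen. All 25 involved untreated list 1, 20 with treated list 2 and 5 with treated list 1, while 0 of the 220 regions with untreated list 2 qualified. For reference, 23 of the 375 regions shared by treated lists 1 and 2 alone (6.13%) passed the same limit, against 12% of the 166 regions of treated list 2 with untreated list 1.

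These 20 strong regions of treated list 2 and untreated list 1 lay on 12 chromosomes, with 4 on chromosome 10, and were 305 to 470 bp wide. Most lay far from the peaks of further lists. The nearest peak of any further list was a median of 757 kb away, over 50 kb away in 18 and over 100 kb away in 16. Only 1 of the 20 lay within 50 kb of a region held by all 5 lists. Other peaks of treated list 2 and untreated list 1 do not enter these distances, so they do not show whether the regions stood alone. Their scores ran from 9.08 to 29.7 in treated list 2 and from 24.5 to 83.6 in untreated list 1, and the centres of the 2 peaks were at most 63.5 bp apart. Mixed regions with treated list 2 accounted for 33 of the 232 peaks at or above the 90th percentile of untreated list 1, against 6 for those with treated list 1.

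The strongest by mean percentile was at chr12:90448680-90449039, with a score of 22.9 in treated list 2 and 74.6 in untreated list 1. The next was at chr12:106018620-106019004, with 29.7 and 50.5 in the same lists. It was followed by chr4:87406375-87406718, with 18.1 and 47.1. The nearest peaks of further lists were 2955766, 80050 and 2408028 bp away from these 3 regions. Others of the 20 were at chr13:66334915-66335272 (9.90 and 83.6), chr5:19748612-19748967 (12.3 and 62.5) and chr10:125639183-125639512 (11.8 and 60.7).

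Of the 5 strong regions of treated list 1 with untreated list 1, 3 lay within 50 kb of a region in all 5 lists, against 1 of the 20 above. A further list had a peak within 10 kb of 4 of the 5. Their distances to further lists cannot be set against those of the 20. Treated list 2, the longest list, is a further list only for the 5. The strongest was at chrY:10025887-10026193, with scores of 33.2 in treated list 1 and 28.2 in untreated list 1 and a peak of treated list 2 at 393 bp. The next were at chr12:38536682-38536918 (33.8 and 27.2), with a peak of treated list 3 at 6777 bp, and chr11:84024297-84024587 (17.9 and 35.2), which stood 1146023 bp from the nearest further peak. The remaining 2 were at chr2:133019610-133019874 and at chr16:33950102-33950414.

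The leading regions of untreated list 2 were weaker. With treated list 1 they were at chrX:8230557-8230932 (scores of 31.2 treated and 9.41 untreated), chr10:96177357-96177924 (23.9 and 8.60) and chr1:205502011-205502560 (12.2 and 11.5). With treated list 2 they were at chr1:241196977-241197412 (10.3 and 9.41), chr10:76865009-76865705 (13.0 and 8.85) and chr18:66724265-66724694 (10.8 and 9.20). The region chr10:76865009-76865705 had a peak of treated list 1 at a distance of 38 bp, which itself belongs to a mixed region of treated list 1 and untreated list 1.

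Treated list 3 shared 7 regions with untreated list 1, led by chr6:133593950-133594193 (scores of 35.5 treated and 14.5 untreated), chr5:56071652-56071910 (12.2 and 17.7) and chr1:41093460-41093695 (10.5 and 27.1). At the regions on chromosomes 5 and 1 the centres were 1.5 and 2 bp apart. With untreated list 2 it shared chr17:31046211-31046576 (10.9 and 9.20), chr4:70296585-70296940 (9.79 and 8.21) and chr19:36785398-36785777 (5.46 and 4.29) among its 4 regions. The last lay 409 bp from a region held by all 5 lists.

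Some mixed regions were strong in one library and near the lower end of the other. The largest excess in a treated list was at chr10:53966574-53967600, at percentile 88.4 in treated list 2 and 1.18 in untreated list 2. It was followed by chr1:16952650-16953292 (87.6 and 2.97, the same lists) and chr4:9350796-9351090 (88.1 in treated list 1 and 3.57 in untreated list 1). The largest excess in an untreated list was at chr10:65113425-65113834, at percentile 1.65 in treated list 1 and 85.9 in untreated list 2. Then came chr8:85490152-85490563 (6.39 in treated list 2 and 86.7 in untreated list 2) and chr8:145057736-145058243 (0.318 and 78.4). Of these 6 regions, 5 came from pairs with untreated list 2, and differences of this size were found in both directions.

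The mixed regions lay on all 24 chromosomes, and chromosome 10 stood first. It held 115 of the 556 (20.7%), against 9.63% of the regions in 3 to 5 lists and 9.11% of those in 1 list alone. Of the regions shared by 2 lists of the same group, 19.8% were on chromosome 10. In treated lists 1, 2 and 3 the chromosome held 25.8%, 17.7% and 9.09% of mixed peaks and 16.4%, 5.73% and 12.3% of peaks in 1 list alone. In untreated lists 1 and 2 it held 21.1% and 19.9% of mixed peaks and 13.0% and 7.56% of peaks in 1 list alone. The share was thus higher among mixed peaks in 4 of 5 lists, the exception being treated list 3 with 1 mixed peak on the chromosome. The chromosome was singled out after the values were seen, so no test was made.

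Chromosome 1 followed with 75 mixed regions (13.5%) and chromosome 8 with 59 (10.6%), close to their shares of all regions, 11.9% and 8.22%. Chromosomes 7, 19 and 20 held 3.06%, 2.34% and 3.06% of mixed regions, against 5.29%, 5.10% and 4.90% of all regions.

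**Figure D5:**
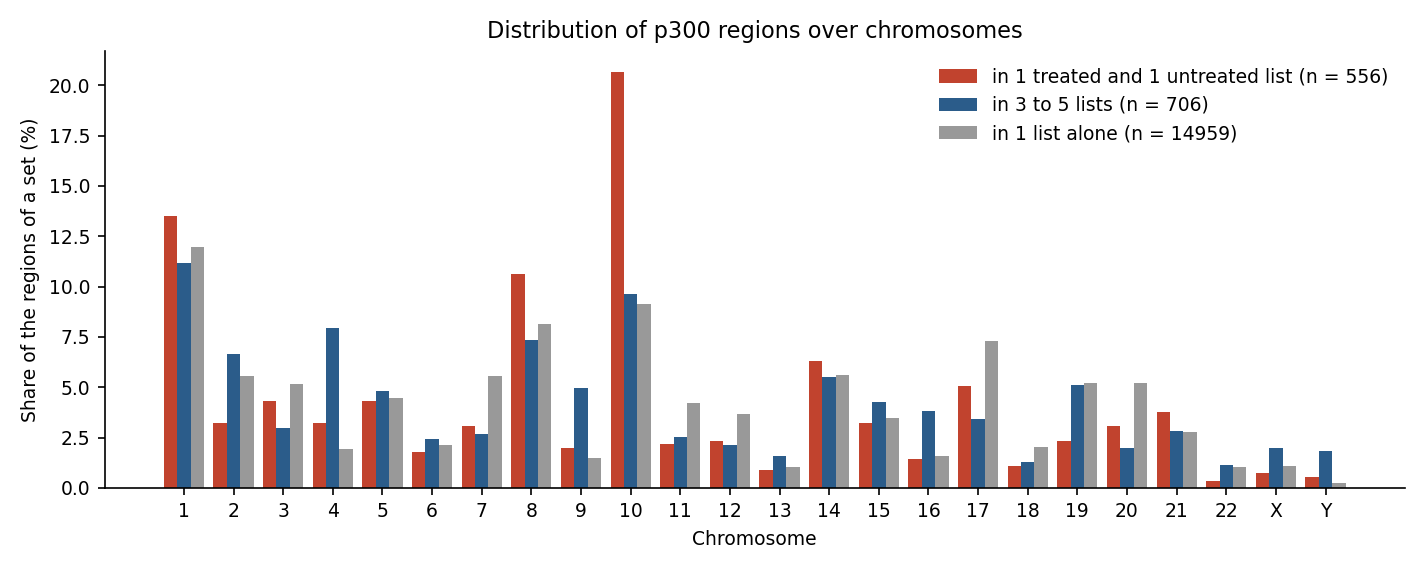
Share of regions on each chromosome (percent of a set) for regions in 1 treated and 1 untreated list (red), in 3 to 5 lists (blue) and in 1 list alone (grey). Chromosome 10 holds 20.7% of the mixed regions against 9.63% and 9.11% of the others.

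Of the 115, 69 lay between 75 and 85 Mb. This stretch held 12.4% of the mixed regions, against 4.45% of all regions, 4.39% of those in 3 to 5 lists and 3.89% of those in 1 list alone. It also held 12.9% of the regions shared by 2 lists of 1 group. Outside it, chromosome 10 held 9.45% of the remaining mixed regions and 5.62% of the remaining regions. The densest 1 Mb for mixed regions ran from 80193808 to 81193807 and held 42 of them among 314 regions of any kind (13.4%), with 185, 119 and 7 peaks in treated lists 1, 2 and 3 and 75 and 42 peaks in untreated lists 1 and 2.

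Within the stretch from 75 to 85 Mb, mixed regions came from 4 pairs, 30 of treated list 1 with untreated list 1, 14 of treated list 2 with untreated list 2, 13 of treated list 2 with untreated list 1 and 12 of treated list 1 with untreated list 2. Their median percentile was 50.3 in the treated and 27.9 in the untreated peak, against 59.3 and 49.98 for mixed regions elsewhere. None of the 25 regions strong in both lists lay there. Further peaks crowded them, with a median of 1677 bp to the nearest peak of another list against 21855 bp elsewhere. Peaks are dense in this stretch, and the part that density plays in the overlaps was not tested. PC3 cells are aneuploid, and the copy number of this stretch was not analysed here.

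Without the stretch, 487 mixed regions remained, with 153 for treated list 2 with untreated list 1, 133 for treated list 1 with untreated list 1, 128 for treated list 2 with untreated list 2, 62 for treated list 1 with untreated list 2, 7 for treated list 3 with untreated list 1 and 4 for treated list 3 with untreated list 2. The rate of treated list 1 with untreated list 1 was then 13.8 per 1000000 peak pairs, against 3.97 to 7.24 for the other mixed pairs. The differences between pairs in the agreement of percentiles were also present, with rho at 0.64 for treated list 2 with untreated list 1, 0.50 for treated list 1 with untreated list 1, 0.22 for treated list 1 with untreated list 2 and 0.035 for treated list 2 with untreated list 2.

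Beyond chromosome 10, in windows of 5 Mb, the largest numbers of mixed regions were 24 on chromosome 8 from 140 to 145 Mb, 17 on chromosome 1 from 225 to 230 Mb and 14 in the first 5 Mb of chromosome 1. These were 4.91%, 9.39% and 3.8% of the regions of any kind in those windows. On chromosome 21 from 10 to 15 Mb there were 10 mixed regions, or 16.1% of 62, the highest share among the windows named here. A second mixed region lay within 50 kb of 164 of the 556 (29.5%). No matching share was computed for other sets of regions.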

How the data were processed

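p300 binding was measured by chromatin immunoprecipitation and sequencing in 5 libraries of irradiated PC3 cells. Fragments measured roughly 100 to 300 bp after shearing, per the labels' protocols. The build was hg19 and the peak caller MACS2, according to the submitters' processing notes. Which aligner, threshold and input were used is not given in the sources at hand. The authors deposited 1 list per library, with a score per peak whose scale is not named. Depth is unknown, so no interval on counts of reads can be given.

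Starts were turned to 1-based. Peaks of all lists sharing 1 bp or more were merged, and scores were ranked within lists. List values were compared by exact two-sided permutation tests over the 10 splits into 2 and 3 lists, or by sign flips over 5 lists. No test here can reach 0.05. Mixed regions count in both of their lists, so the list values in these tests are not fully independent. Tests of the share of a list, of the median width and of the width against peaks of 1 list alone were planned and run. Their p-values are not given, because the rule that chose the regions uses presence and overlap. The percentile tests are not free of the rule either, because only called peaks have a score. The lists are described as biological replicates of 1 line. The merging and tests were tested on simulated data.

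Regions named were the 3 of each pair with the highest mean percentile, the widest, those with the smallest overlap, the closest misses, the largest percentile differences and the densest 1 Mb. The region set, the named regions and the tests were chosen with earlier results of these data known. No genome or annotation of hg19 was used, so genes and sequences are not given. Alternatives were an overlap of 50%, merging within 500 bp, scores of at least 5.90 (the pooled median), equal list lengths, chromosome Y left out, each list left out in turn, means for medians, the replicate number as a block and pairing by run identifier. Where a list was left out, the remaining lists were merged anew, so the set of mixed regions changed. The removal of the chromosome 10 stretch and of regions within 50 kb of those in all 5 lists was added after seeing the data. Python 3.11.15, numpy 2.4.6, pandas 2.3.3, scipy 1.17.1 and matplotlib 3.10.9 were used.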

Additional observations from a re-analysis of the deposited data

Results flagged for a closer look

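The treated minus untreated difference in the median width of mixed peaks had opposite signs in the 2 pairs of lists that share a run identifier. It was 10.0 bp for treated list 1 (250 bp) minus untreated list 1 (240 bp) and -168 bp for treated list 3 (229 bp) minus untreated list 2 (397 bp). Over all of their peaks, treated list 1 had a median of 234 bp against 235 bp in untreated list 1, and treated list 3 had 243 bp against 376 bp in untreated list 2. With a single list per group in each pair, the difference between the pairs was not tested. The value of treated list 3 rests on 11 peaks.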

How the results depend on the processing

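Among 95 alternative values, 90 kept their direction or, for the number of regions, were within 1.5-fold. A further 3 were counts outside that range, and 2 values changed sign. In place of 556 mixed regions, the score minimum left 296 and equal list lengths left 120, since both hold fewer peaks. Leaving out 1 list gave 255 to 609, with the mixed regions redrawn from the remaining lists. At equal list lengths the log2 width ratio of mixed peaks over peaks of 1 list alone was -0.067 in place of 0.14, and the cause was not tested. When 1 list was left out, the treated minus untreated difference ran from -106 to 53.8 bp for median width, from 1.46 to 23.7 points for median percentile and from -13.8 to -1.39 points for the share of a list. Percentile differences ran from 9.61 to 29.8 points against regions in 1 list and from -31.0 to -8.35 against regions in 3 to 5 lists, and the log2 width ratio from 0.13 to 0.19. With the replicate block, lists of the same number gave -8.73 points for the share of a list, 11.9 points for percentile and -13.5 bp for width. Only the lists numbered 1 also share a run identifier, and a replicate number was not taken as a pairing. Lists matched by run identifier gave -9.22 points, 17.6 points and -79.0 bp. Differences in the share of a list depend on the number and length of the lists. Without read depth, a site missed in a library cannot be told apart from a site not bound.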
